A study of Mus musculus with 12 samples.

Results

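The 10 circadian clock genes described here are the activators Arntl and Clock, the repressors Per1, Per2, Per3, Cry1, Nr1d1, Nr1d2 and Ciart, and the output regulator Dbp. They were chosen by name among 13951 Ensembl gene identifiers in a deposited expression table, and all 10 were present. They were measured in polyadenylated RNA from the ventral hippocampus of 12 C57BL/6J mice aged 12 to 16 weeks. The mice fell into 4 groups of 3: females labelled Angelman syndrome (AS), control (wild-type, WT) females, AS males and WT males. Angelman syndrome is a neurodevelopmental disorder that follows loss of the maternally inherited copy of UBE3A, a ubiquitin ligase gene, in neurons. The labels name the disease state of the AS mice but not the mutation they carry, and the hour of dissection and the light schedule are not given in the sources used here. The labels record 1 library per mouse and nothing on litters, so p-values measure the spread between these 12 mice.

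In the mammalian clock, CLOCK and ARNTL (also called BMAL1) bind E-box sequences as a pair and switch on the Per, Cry, Nr1d, Dbp and Ciart genes. PER and CRY proteins and CIART then inhibit the pair, and the NR1D proteins (REV-ERB alpha and beta) repress Arntl, so that most of these transcripts cycle over the day in tissues that include the hippocampus. UBE3A has been reported to mark ARNTL protein for degradation. The level of a cycling transcript in a single dissection therefore depends on the hour, which these data do not resolve.

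Values are log2(abundance + 1), obtained from a table read as the natural log of an RSEM abundance plus 1. The values are taken to be scaled to transcript length, which the sources used here do not state. Levels of different genes are set side by side on that reading. How the table was filtered and scaled is not stated in the sources used here, and the number of reads behind each value is unknown. Differences were tested with limma over 13858 genes with a mean abundance of at least 1, with Benjamini-Hochberg adjustment over all of them. All 10 clock genes passed that filter.

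The mean of 8 markers of hippocampal excitatory neurons ran between 5.78 and 6.23 over the libraries. Fibcd1 was at 4.19 in WT male 2 and at 5.11 to 5.62 in the other 11. Spink8 was also lowest in WT male 2, at 4.75, whereas Neurod6 was highest there, at 6.71. Prox1, Neurod2, Zbtb20, Slc17a7 and Camk2a in WT male 2 lay within the range of the other libraries. The mean of 8 oligodendrocyte markers ran between 6.15 and 7.03 and that of 7 meningeal fibroblast markers between 2.26 and 3.78. The widest range was that of the choroid plexus, the epithelium that makes cerebrospinal fluid and lies next to the ventral hippocampus. The mean of 15 choroid plexus markers was 3.18 to 5.38 in 4 libraries (AS female 2, AS male 2, WT female 1 and WT female 2) and 1.39 to 1.98 in the other 8. In bulk RNA, fewer cells of a type and less RNA per cell cannot be told apart. Of 5 markers of the suprachiasmatic nucleus, the brain's central clock, Rgs16 was tested. Avp, Nms, Six6 and Lhx1 were not found among the gene symbols of the expression table.

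Promoter sequences are printed for the clock genes with a window that held a motif marked in capitals below. Each window below holds 250 bases before and 50 bases after a RefSeq start site (GRCm38.p6), printed 5′ to 3′ on the strand of the gene. Capitals mark an E-box (CACGTG), an E prime box (CACGTT, or AACGTG read on the other strand) or a D-box (TTATGTAA or TTACGTAA), the site that DBP binds.
Cry1, chr10:85185005-85185304, minus strand: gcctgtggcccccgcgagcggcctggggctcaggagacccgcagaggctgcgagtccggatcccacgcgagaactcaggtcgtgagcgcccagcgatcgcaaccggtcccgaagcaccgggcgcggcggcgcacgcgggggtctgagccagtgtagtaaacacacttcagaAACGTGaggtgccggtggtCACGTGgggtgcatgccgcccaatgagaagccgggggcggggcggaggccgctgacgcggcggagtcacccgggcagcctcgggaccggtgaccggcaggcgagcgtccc
Nr1d1, chr11:98775328-98775627, minus strand: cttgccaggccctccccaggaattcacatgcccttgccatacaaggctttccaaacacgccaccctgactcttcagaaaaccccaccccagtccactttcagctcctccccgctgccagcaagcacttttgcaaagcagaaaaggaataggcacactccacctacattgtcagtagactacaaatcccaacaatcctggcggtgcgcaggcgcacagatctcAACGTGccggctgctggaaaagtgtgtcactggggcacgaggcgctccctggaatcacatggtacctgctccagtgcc
Per1, chr11:69098699-69098998, plus strand: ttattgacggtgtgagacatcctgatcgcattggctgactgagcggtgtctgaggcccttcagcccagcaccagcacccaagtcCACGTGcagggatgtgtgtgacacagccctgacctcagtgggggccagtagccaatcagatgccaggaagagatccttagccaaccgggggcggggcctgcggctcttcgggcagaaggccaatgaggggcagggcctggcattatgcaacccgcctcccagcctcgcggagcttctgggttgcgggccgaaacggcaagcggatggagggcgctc
Ciart, chr3:95882179-95882478, minus strand: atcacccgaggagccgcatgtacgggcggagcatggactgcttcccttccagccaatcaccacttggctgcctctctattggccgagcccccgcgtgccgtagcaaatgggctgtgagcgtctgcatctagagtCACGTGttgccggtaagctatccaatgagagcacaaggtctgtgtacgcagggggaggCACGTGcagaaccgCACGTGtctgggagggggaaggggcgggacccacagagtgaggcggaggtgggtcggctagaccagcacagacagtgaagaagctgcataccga
Per3, chr4:151044616-151044915, minus strand: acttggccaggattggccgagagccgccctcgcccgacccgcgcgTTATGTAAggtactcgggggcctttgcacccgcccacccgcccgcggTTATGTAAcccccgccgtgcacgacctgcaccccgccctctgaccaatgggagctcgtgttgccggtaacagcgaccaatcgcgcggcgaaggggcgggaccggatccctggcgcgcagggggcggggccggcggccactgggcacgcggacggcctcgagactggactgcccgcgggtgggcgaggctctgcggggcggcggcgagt

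Cry1 held an E-box that ended 54 bases before the start site and an E prime box that ended 73 bases before it. The E prime box of Nr1d1 ended 22 bases before its start site. In Ciart there were 3 E-boxes, ending 110, 52 and 38 bases before the start, and in this Per1 window 1 E-box ended 160 bases before it. Per3 held 2 D-boxes, ending 197 and 150 bases before its start. The windows of Arntl, Clock, Nr1d2 and Dbp, and the other Per1 window, held no E-box, E prime box or D-box. On both strands of 32851 RefSeq promoter windows of the same length, the E-box was found in 7.15%, the E prime box in 4.68% and the D-box in 1.06%. RefSeq windows were matched for 9 of the 10 genes, and 3 of the 9 held an E-box in at least 1 window, as did 8.09% of 27025 genes. The core of the ROR element (TAGGTCA or TGGGTCA), which NR1D proteins bind, was present in 6.45% of windows and in 1 of 2 Arntl windows, and the cAMP response element (TGACGTCA) was present in 1.79% of windows and in none of the clock genes' windows. A match describes the letters of a window only.

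The output gene and the nuclear receptor genes had the highest levels of the set. Nr1d2 averaged 4.82 ± 0.15 over the 12 libraries, Nr1d1 4.76 ± 0.22 and Dbp 4.75 ± 0.23 (SD), so these 3 lay within their spread of each other. Per1 followed at 4.16 ± 0.29 and Clock at 4.04 ± 0.12, again within their spread of each other. Arntl averaged 3.71 ± 0.07, Per3 3.28 ± 0.28, Ciart 3.02 ± 0.25, Per2 2.95 ± 0.20 and Cry1 2.52 ± 0.14. The mean ± SD ranges of neighbours overlapped from Per3 to Ciart and from Ciart to Per2, whereas Arntl stood between Clock and Per3 by more than its own spread. Levels of different genes were not tested against each other within libraries. On the abundance scale, Nr1d2 ran from 23.7 to 32.6 over the libraries and Cry1 from 3.92 to 5.84.

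**Figure D1:**
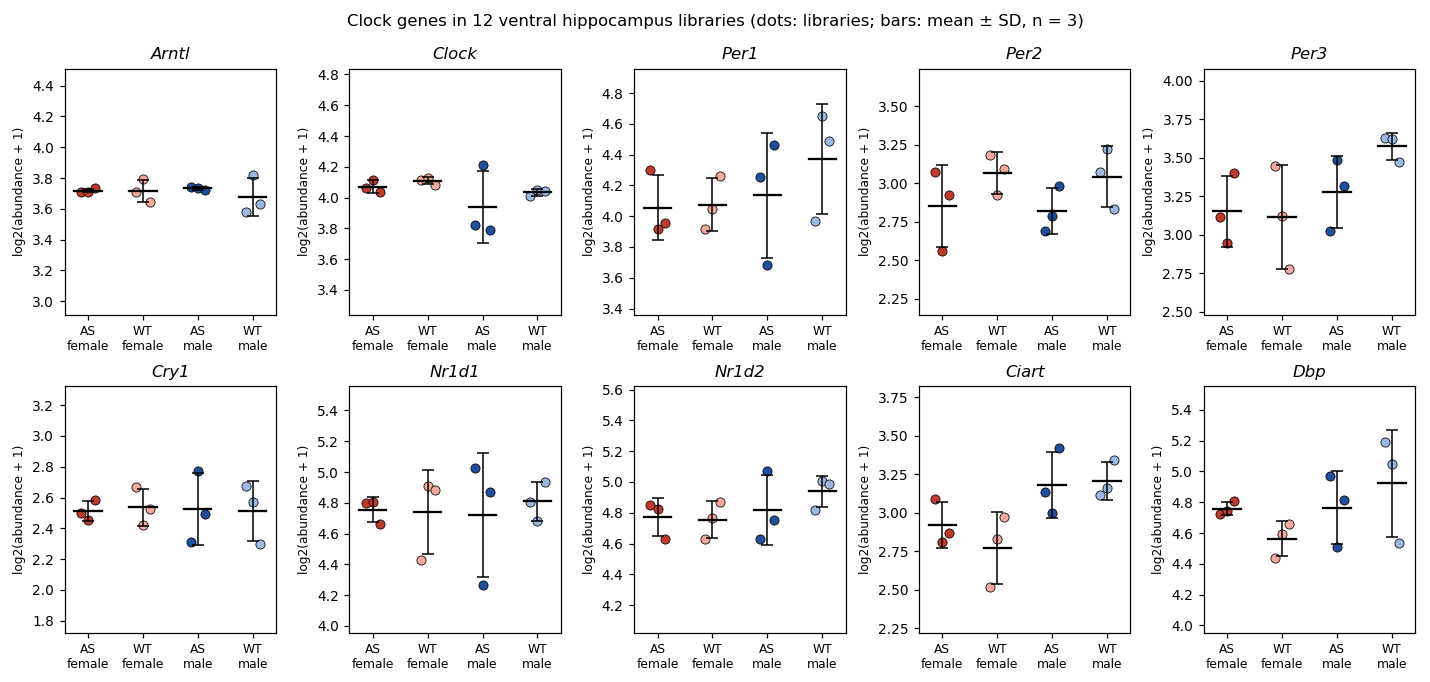
Level of each clock gene in every library, as log2(abundance + 1) on the vertical axis, with 1 dot per library and bars for the mean ± SD of 3 libraries per group. Every panel spans the same height, so the narrow scatter of Arntl (3.58 to 3.82) can be set beside the wide scatter of Per1 (3.68 to 4.65).

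Spread between libraries of one group differed widely among the clock genes. The residual SD of Per1, a repressor gene that also responds acutely to stimuli, was 0.30, higher than that of 89.0% of the genes tested. Nr1d1 (0.25), Per3 (0.24) and Dbp (0.22) lay above 84.0%, 82.0% and 78.5% of genes. Clock had a residual SD of 0.12 and Arntl one of 0.07, above only 39.1% and 9.27% of genes, where the median over all genes was 0.14. Among the 1000 genes nearest to each in level, Per1 was above 97.3% and Arntl above 8.40%. The abundance of Per1 differed 2.04-fold between its highest and lowest library and that of Ciart 2.05-fold, against 1.37-fold for Clock and 1.20-fold for Arntl.

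No clock gene passed the test for a difference between AS and WT mice. With limma, 0 of 10 passed at an adjusted p under 0.05 in females, in males or as the mean of both sexes, and 0 of 10 had an unadjusted p under 0.05 in any of the 3. Over all 13858 genes 0% passed after adjustment in each of these comparisons, and 3.16% in females, 6.42% in males and 5.35% as the mean of both sexes had an unadjusted p under 0.05. In AS against WT females 6 of the 10 differences were above 0 and 4 below, with a median of 0.01 on the log2 scale. In males 2 were above and 8 below, with a median of -0.11, and as the mean of both sexes 3 were above and 7 below, with a median of -0.04. The share of all genes above 0 was 51.6% in females, 52.4% in males and 52.7% as the mean of both sexes, and the median of all genes was at most 0.01.

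Per2 (chr1:91415982-91459324, minus strand, GRCm38), a repressor whose protein is a core partner of the CRY proteins, had the lowest unadjusted p of the 10 for genotype. It measured 3.07, 2.56 and 2.92 in AS females and 3.19, 2.92 and 3.09 in WT females. In males the values were 2.69, 2.78 and 2.98 for AS and 3.07, 3.22 and 2.83 for WT. The 3 lowest of the 12 values came from AS mice, but the groups overlapped in both sexes. AS minus WT was -0.21 ± 0.15 (SE) in females and -0.22 ± 0.15 in males. As the mean of both sexes it was -0.22 ± 0.10, with an unadjusted p of 0.0563 and an adjusted p of 0.914 in limma. Its 95% interval ran from -0.45 to 0.01, a change in abundance + 1 of between -26.6% and 0.48%.

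Arntl (chr7:113207465-113314126, plus strand), the activator whose protein is reported as a UBE3A target, measured 3.71, 3.71 and 3.73 in AS females and 3.71, 3.79 and 3.65 in WT females. In AS males it measured 3.74, 3.74 and 3.72, and in WT males 3.58, 3.82 and 3.63. All 6 AS values lay inside the range of the 6 WT values. The difference as the mean of both sexes was 0.03 ± 0.05, with an interval from -0.09 to 0.14, or -5.76% to 10.4% of abundance + 1. Its partner Clock (chr5:76209868-76304792, minus strand) measured 4.06, 4.11 and 4.04 in AS females, 4.12, 4.13 and 4.08 in WT females, 3.82, 4.21 and 3.79 in AS males and 4.01, 4.05 and 4.04 in WT males. AS male 2 was the highest of all 12 for Clock, and the other 2 AS males were the lowest. Clock differed by -0.06 ± 0.07 as the mean of both sexes, with an interval from -0.21 to 0.08. In males alone the difference was -0.09 ± 0.10, and without AS male 2 it was -0.23, with an unadjusted p of 0.00265 and an adjusted p of 0.677 in limma.

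The other repressors and Dbp likewise had intervals that covered 0 in each of these comparisons. Dbp (chr7:45705088-45710203, plus strand), which encodes a transcription factor that binds D-boxes, measured 4.73, 4.74 and 4.81 in AS females and 4.44, 4.59 and 4.66 in WT females. These groups did not overlap, which held for 9.01% of all genes in females, and the difference was 0.19 ± 0.16 with an unadjusted p of 0.239. In males Dbp measured 4.97, 4.51 and 4.81 in AS and 5.19, 5.05 and 4.53 in WT mice, which overlapped, and the difference was -0.16 ± 0.16. Dbp was the only one of the 10 without overlap between AS and WT in females, none of the 10 lacked overlap in males, where 11.2% of all genes did, and none when both sexes were joined, where 0.361% did.

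Per3, a Per family member that is dispensable for rhythms in mice, differed between AS and WT males by -0.30 ± 0.17, with an unadjusted p of 0.110 and an adjusted p of 0.808. As means of both sexes, AS minus WT was -0.13 ± 0.15 for Per1, -0.13 ± 0.12 for Per3, -0.01 ± 0.10 for Cry1 and -0.04 ± 0.13 for Nr1d1. It was -0.05 ± 0.08 for Nr1d2, 0.06 ± 0.10 for Ciart and 0.02 ± 0.11 for Dbp. The bounds of the 10 intervals lay between -0.46 and 0.28, that is, between -27.1% and 21.6% of abundance + 1, so larger differences in either direction fell outside them.

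**Figure D2:**
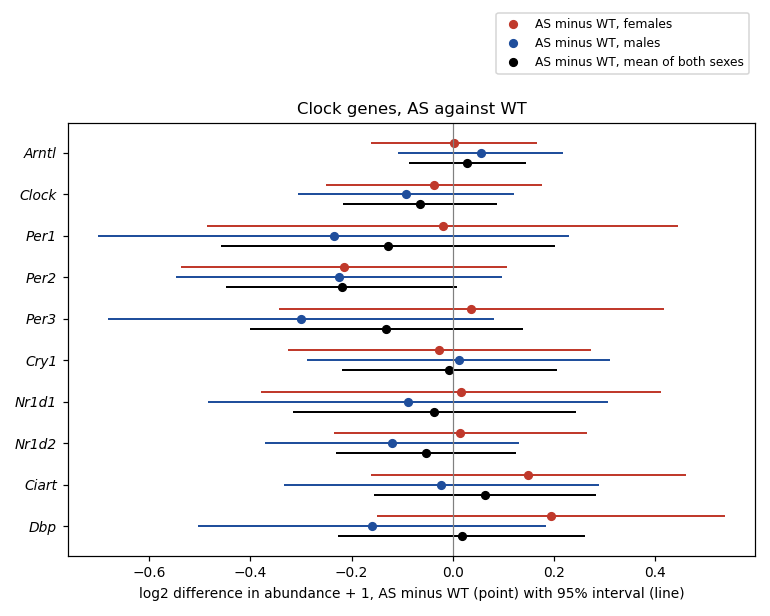
AS minus WT difference of each clock gene on the log2(abundance + 1) scale (points) with its 95% interval from limma (lines), in females, in males and as the mean of both sexes. All intervals of the mean of both sexes cover 0, and that of Per2, from -0.45 to 0.01, reaches least far above it.

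Ube3a itself (chr7:59228750-59311536, plus strand) was set beside the clock genes. Its values were 4.16, 4.25 and 3.95 in AS females and 4.34, 4.09 and 4.30 in WT females. They were 3.78, 4.31 and 3.99 in AS males and 4.02, 3.99 and 4.21 in WT males, and the groups overlapped in both sexes. AS minus WT was -0.09 ± 0.09 as the mean of both sexes. Since the mutation is not named, this value is no check of the genotype labels.

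Whether AS differed from WT by another amount in males than in females was tested as an interaction, the male difference minus the female difference. With limma, 0 of 10 clock genes passed, where 0% of all genes did, and 0 of 10 had an unadjusted p under 0.05, where 3.77% of all genes did. Dbp had the lowest unadjusted p at 0.136, with a value of -0.35 ± 0.22, followed by Per3 at -0.34 ± 0.24 with a p of 0.196. The smallest adjusted p of the 10 was 0.987. In 8 of the 10 the interaction was below 0, with a median of -0.12, while 50.5% of all genes were above 0.

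Males and females were compared within each genotype. In WT mice, males minus females gave an unadjusted p under 0.05 for Ciart, Per3 and Dbp, all higher in males, and 0 of 10 passed after adjustment over all genes in limma. Of all genes 7.7% had such a p, 4.39% with males higher, and 0.0289% passed after adjustment. Ciart, which encodes an inhibitor of the CLOCK and ARNTL pair, measured 3.11, 3.16 and 3.34 in WT males and 2.52, 2.83 and 2.97 in WT females. The groups did not overlap, and the difference was 0.43 ± 0.14, with an unadjusted p of 0.0101 and an adjusted p of 0.632. In AS mice Ciart measured 3.13, 3.00 and 3.42 in males and 3.09, 2.81 and 2.87 in females, which overlapped, and the difference was 0.26 ± 0.14 with an adjusted p of 1.00.

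Per3 measured 3.63, 3.62 and 3.48 in WT males and 3.45, 3.12 and 2.78 in WT females, also without overlap. Its difference was 0.46 ± 0.17, with an unadjusted p of 0.0219 and an adjusted p of 0.632. In AS males it measured 3.02, 3.49 and 3.32 and in AS females 3.11, 2.95 and 3.40, a difference of 0.12 with overlap. Dbp differed by 0.36 ± 0.16 in WT mice (unadjusted p 0.0408, adjusted p 0.640) and by 0.01 in AS mice, with overlap in both. Clock was lower in all 3 WT males than in any WT female, by -0.08 ± 0.10. In WT mice, 3 of 10 clock genes thus lacked overlap between the sexes, where 14.7% of all genes did. In AS mice 0 of 10 lacked it, where 8.47% of all genes did. There 0 of 10 had an unadjusted p under 0.05, where 3.63% of all genes did, and 0 passed after adjustment, where 0.0361% did.

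Other gene lists were also compared between the WT sexes. None of their genes passed after adjustment in limma, and 7.7% of all genes had an unadjusted p under 0.05. The median difference of all genes was 0.004. Of the choroid plexus markers 15 of 15 were lower in WT males than in WT females and 13 had an unadjusted p under 0.05, and of 4 markers of the ependyma, the lining of the ventricles, 4 were lower and 2 had such a p. Of 11 activity-regulated genes, the list set beside Per1, 11 were higher in WT males, 1 with such a p, and their mean was 3.50 ± 0.38 in WT males and 3.10 ± 0.20 in WT females (SD, n = 3). The part of the ependyma and of the activity-regulated genes in the differences of Ciart, Per3 and Dbp was not tested. The choroid plexus marker mean was then added as a covariate in limma, with a slope shared by all 4 groups. That mean was 1.48 to 1.67 in WT males and 4.47, 5.38 and 1.98 in WT females. Sex and these markers therefore cannot be fully told apart in WT mice. The WT male minus female difference became 0.26 for Ciart (unadjusted p 0.126), 0.26 for Dbp (0.201) and 0.54 for Per3 (0.0317). Without the 4 libraries with high markers it was 0.24 for Ciart, 0.26 for Dbp and 0.80 for Per3. WT females then had 1 library, which was assumed to vary like the others. A comparison of the sexes as the mean of both genotypes was added after the values had been seen. It gave 0.35 ± 0.10 for Ciart (unadjusted p 0.00479, adjusted p 0.675) and 0.29 ± 0.12 for Per3 (0.0362), the only 2 of 10 with an unadjusted p under 0.05, where 6.91% of all genes had one and 0.0361% passed after adjustment. When both genotypes were joined, the sexes overlapped for all 10, and 0.296% of all genes did not overlap.

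**Figure D3:**
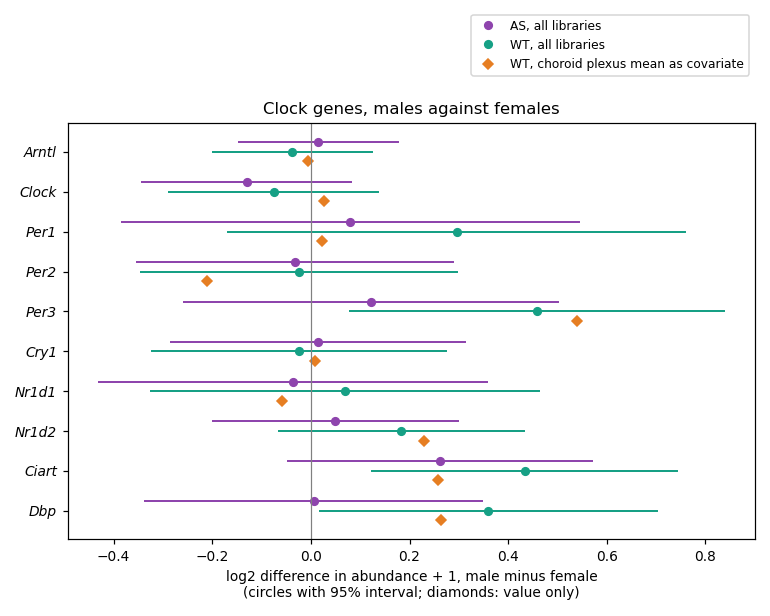
Male minus female difference of each clock gene on the log2(abundance + 1) scale in AS mice, in WT mice and in WT mice with the choroid plexus marker mean as a covariate, with 95% intervals as lines on the circles. Ciart was 0.43 in WT mice with all libraries and 0.26 with the covariate, whereas Per3 was 0.46 and 0.54. Sex and the markers cannot be fully told apart in WT mice.

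Relations between the clock genes across the 12 libraries were tested for all 45 pairs. A single pair passed at an adjusted p under 0.05, Cry1 and Nr1d1. The share of pairs among all genes that correlate as strongly was not computed, so this count is not read as a trait of clock genes. Nr1d1, the gene of REV-ERB alpha, measured 4.80, 4.80 and 4.66 in AS females, 4.43, 4.91 and 4.88 in WT females, 5.03, 4.26 and 4.87 in AS males and 4.81, 4.68 and 4.94 in WT males. Cry1, the cryptochrome repressor, measured 2.50, 2.45 and 2.58 in AS females, 2.67, 2.42 and 2.52 in WT females, 2.31, 2.77 and 2.49 in AS males and 2.67, 2.57 and 2.30 in WT males. AS male 2 had the lowest Nr1d1 and the highest Cry1, while AS male 1 and WT male 3 had the 2 highest Nr1d1 values and the 2 lowest Cry1 values.

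Pearson's r between Cry1 and Nr1d1 was -0.85 (permutation p 0.00028, adjusted over 45 pairs 0.0126). Spearman's rho was -0.82 (permutation p 0.00173), which did not pass after adjustment (0.0778). Without AS male 2 and WT male 3, the libraries farthest from the median of Cry1, r was -0.78. As deviations from the group means it was -0.86. Leaving out 1 library at a time gave r between -0.93 and -0.78, and the pair no longer passed without WT female 2 (adjusted p 0.0531) or AS male 2 (adjusted p 0.101). Among the 8 libraries without high choroid plexus markers r was -0.77 and did not pass.

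**Figure D4:**
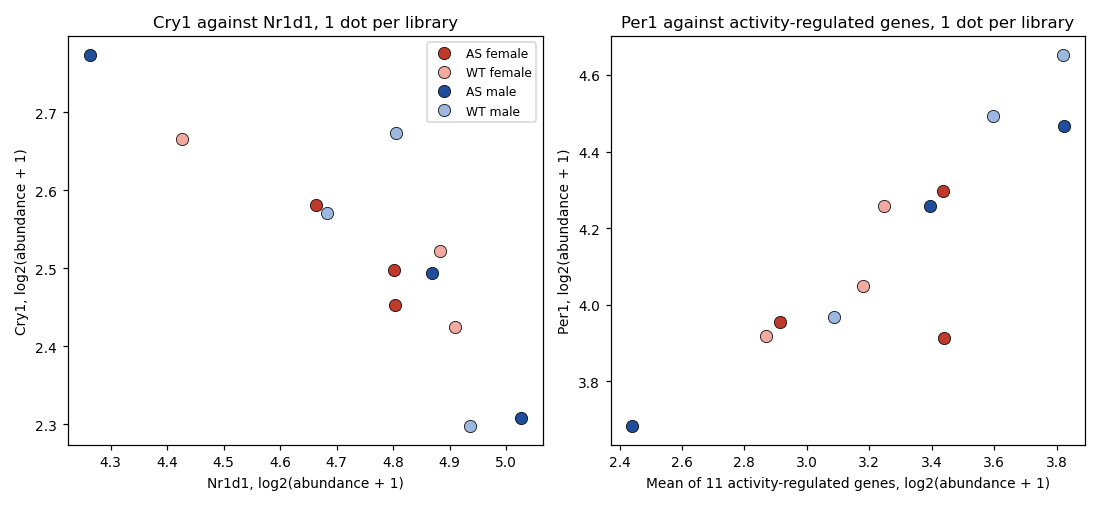
Left, Cry1 against Nr1d1, and right, Per1 against the mean of 11 activity-regulated genes, all as log2(abundance + 1) with 1 dot per library in the colour of its group. Cry1 is lower where Nr1d1 is higher (r -0.85), and Per1 is higher where the activity-regulated mean is higher (r 0.89), with AS male 2 at an end of both plots.

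Of the other 44 pairs, 3 had an unadjusted permutation p under 0.05 and none passed after adjustment. Per1 and Ciart, both repressors, had r 0.68 (permutation p 0.0152, adjusted 0.342) and rho 0.75. Clock with Nr1d1 gave r -0.60 (permutation p 0.0363) and Clock with Ciart r -0.61 (permutation p 0.0391). After regression on the choroid plexus mean, r was 0.44 for Per1 with Ciart, -0.56 for Clock with Nr1d1 and -0.31 for Clock with Ciart, and without the 4 libraries with high markers it was 0.66, -0.50 and -0.53 in the same order. Between the activators and the other 8 genes, 5 of 16 values of r were positive and 11 negative, with a median of -0.04. Arntl had r between -0.18 and 0.13 with each of the 8, and Clock between -0.61 and 0.46. The activators had r 0.05 with each other. Within the repressors and Dbp, 19 of 28 values of r were positive, with a median of 0.18.

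Per1 was then set beside genes that neurons switch on when they are active, since Per1 is itself known to respond to such stimuli. This comparison was chosen after the values had been seen, and covered 20 relations, each of the 10 clock genes with the mean of 11 activity-regulated genes (Arc, Btg2, Dusp1, Egr1, Egr2, Fos, Fosb, Ier2, Junb, Npas4 and Nr4a1) and with the mean of 14 glucocorticoid-responsive genes. Per1 measured 4.30, 3.91 and 3.96 in AS females, 3.92, 4.05 and 4.26 in WT females, 4.26, 3.68 and 4.47 in AS males and 3.97, 4.65 and 4.49 in WT males. The activity-regulated mean was 3.44, 3.44 and 2.92 in the same AS females, 2.87, 3.18 and 3.25 in WT females, 3.40, 2.44 and 3.82 in AS males and 3.09, 3.82 and 3.60 in WT males. AS male 2 was lowest for both measures, and WT male 2, WT male 3 and AS male 3 were the 3 highest for both.

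Pearson's r between Per1 and the activity-regulated mean was 0.89 (permutation p 0.0001, adjusted over 20 relations 0.002). Spearman's rho was 0.78 (permutation p 0.00465) and did not pass after adjustment (0.093). Without AS male 2 and AS male 3, the libraries farthest from the median of the activity-regulated mean, r was 0.84. Over 6 females r was 0.51 and over 6 males 0.97, and as deviations from the group means it was 0.90. Leaving out 1 library at a time gave r between 0.85 and 0.97, with adjusted p between 0.0002 and 0.0184, and without the 4 libraries with high choroid plexus markers r was 0.95. Each of the 11 genes had a positive r with Per1, from 0.54 for Dusp1 to 0.89 for Fos. The share of all genes that correlate as strongly with the activity-regulated mean was not computed.

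No other clock gene passed against the activity-regulated mean. The next largest values were r 0.69 for Nr1d1 (permutation p 0.0121, adjusted 0.0807), -0.65 for Cry1 (permutation p 0.0231, adjusted 0.116) and 0.61 for Ciart (permutation p 0.0369, adjusted 0.148). Without the 4 libraries with high choroid plexus markers r was 0.19 for Nr1d1, -0.36 for Cry1 and 0.81 for Ciart. Without AS male 2 and AS male 3 it was 0.43 for Nr1d1, -0.51 for Cry1 and 0.70 for Ciart. Nr1d2 had r 0.79 without AS male 2 and AS male 3, but 0.06 over all 12 libraries. Clock had r -0.59 over all 12 libraries (permutation p 0.0466, adjusted 0.155) and -0.16 without AS male 2 and AS male 3. Per2, which like Per1 belongs to the Period family, had r 0.09 over all 12 libraries, and Per3 had r -0.13. With the glucocorticoid-responsive mean, Per1 had r 0.71 (permutation p 0.0101, adjusted 0.0807) and Per2 0.43. The glucocorticoid-responsive mean was 4.32 ± 0.14 in AS females and 4.53 ± 0.15 in WT females, and 4.21 ± 0.19 in AS males and 4.50 ± 0.30 in WT males (SD, n = 3). Of its 14 genes, 14 were lower in AS mice as the mean of both sexes, 4 with an unadjusted p under 0.05 and 0 after adjustment in limma, where 5.35% of all genes had such a p and 52.7% were above 0. Of the 11 activity-regulated genes, 11 were higher in AS females than in WT females, where 51.6% of all genes were higher. In AS males 1 was higher and 10 were lower than in WT males, where 52.4% of all genes were higher. In limma 0 of the 11 had such a p in females and 1 in males, where 3.16% and 6.42% of all genes did. After adjustment 0 passed in either sex. The part of both lists in the values of Per1 and Per2 was not tested.

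The activator arm was compared with the repressor and output arm in each library, as the mean of Arntl and Clock minus the mean of the other 8 genes. The difference was 0.08, 0.28 and 0.16 in AS females and 0.26, 0.26 and 0.11 in WT females. It was 0.03, 0.28 and -0.13 in AS males and -0.11, -0.06 and -0.02 in WT males. Group means were 0.17 ± 0.10 in AS females, 0.21 ± 0.09 in WT females, 0.06 ± 0.21 in AS males and -0.07 ± 0.05 in WT males (SD, n = 3), so that AS and WT overlapped in both sexes while all WT males lay below all WT females. No test is given for a score over genes chosen with results known.

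The 4 libraries with high choroid plexus markers had the 4 largest arm differences. These were 0.26 to 0.28 in the 4 and -0.13 to 0.16 in the other 8. Clock was 4.11 to 4.21 in the 4 and 3.79 to 4.08 in the other 8, without overlap. The mean of the repressors and Dbp was 3.63 to 3.70 in the 4 and 3.73 to 4.00 in the other 8, again without overlap. The share of all genes without overlap between the 4 and the other 8 was not computed. The lack of overlap is therefore not read as a trait of clock genes. Among single genes, Per1 was 3.68 to 4.05 in the 4 and 3.96 to 4.65 in the other 8, and Ciart 2.52 to 3.00 in the 4 and 2.87 to 3.42 in the other 8. Not every repressor had a lower median in the 4: that of Cry1 was 2.56 in the 4 and 2.51 in the other 8. The median of Nr1d2 was slightly lower, 4.80 in the 4 and 4.84 in the other 8, but its highest value, 5.07, was in AS male 2. Arntl was 3.71 to 3.79 in the 4, within the 3.58 to 3.82 of the other 8. The part of the choroid plexus tissue in these differences was not tested.

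**Figure D5:**
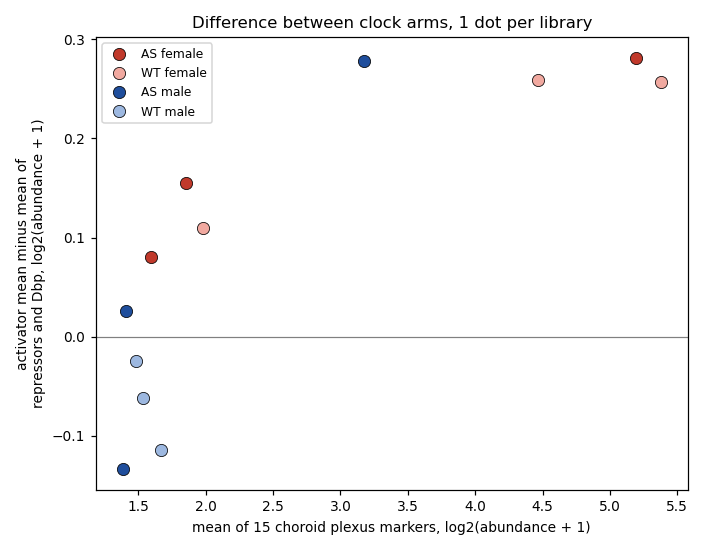
Mean of the activators minus mean of the repressors and Dbp (vertical axis) against the mean of 15 choroid plexus markers (horizontal axis), both from log2(abundance + 1), with 1 dot per library. The 4 libraries with a marker mean of 3.18 or more sit between 0.26 and 0.28, and the other 8 between -0.13 and 0.16.

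The number that opens each library's title is the only order the labels give, and what it stands for is not stated. None of 10 relations with it passed after adjustment. The largest were r 0.64 for Nr1d1 (permutation p 0.0206, adjusted 0.111) and -0.64 for Clock (permutation p 0.0222, adjusted 0.111). The 4 libraries with high choroid plexus markers carried the numbers 1, 2, 3 and 7. Relations with the number were not tested apart from these markers.

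A list of 30 further genes of the clock pathway was also tested. None passed after adjustment in any contrast with limma. For AS minus WT males 3 had an unadjusted p under 0.05: the PAR bZIP factor gene Hlf at -0.26 ± 0.12 (p 0.0494), the PER kinase gene Csnk1e at -0.22 ± 0.08 (p 0.0234), and Tipin, whose product partners TIMELESS at replication forks, at 0.36 ± 0.12 (p 0.0120). These were 3 of 30, where 6.42% of all genes had such a p. In females none of the 30 had such a p, where 3.16% of all genes did. As the mean of both sexes Wee1, a clock-controlled kinase gene of the cell cycle, was at -0.21 ± 0.09 (p 0.0437), 1 of 30, where 5.35% of all genes had such a p. The interaction gave such a p for Csnk1e at -0.30 ± 0.12 (p 0.0298) and for Tipin at 0.38 ± 0.17 (p 0.0480), 2 of 30, where 3.77% of all genes had such a p. In females 15 of the 30 were higher in AS and 15 lower, and in males 12 were higher and 18 lower, while 51.6% and 52.4% of all genes were higher.

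Between the sexes, the PAR bZIP factor gene Tef was at 0.15 ± 0.06 for WT males minus WT females (unadjusted p 0.0418), 1 of 30, where 7.7% of all genes had such a p. In AS mice the same comparison gave -0.33 ± 0.14 for Bhlhe40 (p 0.0375), an E-box repressor gene, -0.22 ± 0.08 for Gsk3b (p 0.0223), a kinase gene, and 0.32 ± 0.14 for Timeless (p 0.0402), 3 of 30, where 3.63% of all genes had such a p. None of these passed after adjustment in limma.

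Genes whose levels ran most like those of Dbp and of Arntl were ranked by Pearson's r over the 12 libraries among 12470 other genes, as a description of libraries that share a normalization. Closest to Dbp were Mgat5b (r 0.90), Suds3 (0.90), Slc29a1 (0.89), Ndufa8 (0.89), Dmtn (0.87), Izumo4 (0.87), Faap24 (0.87) and Fbxl19 (0.87). Most opposed to Dbp were Cpsf2 (r -0.94), Cep290 (-0.91), Lin7c (-0.91), Abce1 (-0.91), Xpot (-0.89), Etaa1 (-0.89), Dlec1 (-0.87) and Tomm70a (-0.87). No clock gene was among either 8: Ciart came nearest to Dbp at rank 2438 (r 0.40) and Nr1d1 at rank 2700 (r 0.38), while Clock stood at rank 11383 (r -0.52). Closest to Arntl were Golga7 (r 0.90), Ttll5 (0.87), Pcdha11 (0.87), Tex2 (0.86), Mal (0.83), Rapgef4 (0.83), Dcps (0.82) and Gab1 (0.81), again without a clock gene. Most opposed to Arntl were Arf2 (r -0.87), Prl8a1 (-0.87), Tor1a (-0.87), Cacna1g (-0.83), Oprm1 (-0.83), Foxp1 (-0.83), Usf1 (-0.82) and Cytl1 (-0.82).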

How the data were processed

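The deposited table holds 1 value per gene and library on a log scale and no counts. Per the submitters' processing notes, Trimmomatic, Bowtie2 and RSEM were used with GRCm38 (mm10), and no versions are given. The authors' values were read as the natural log of an abundance plus 1. The log base, the added constant, TPM or FPKM, the filter and the normalization are not stated in the sources used here. Columns share values over the middle of the range, read as quantile normalization, and depth is unknown.

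Here the deposited natural log values were divided by the natural log of 2 to give log2 values. Genes with a mean abundance of at least 1 (13858 of 13951 identifiers) entered limma 3.58.1 in R 4.3.3, with trend and a mean for each of 4 groups, 8 residual degrees of freedom and two-sided tests adjusted by Benjamini-Hochberg. There were 6 planned contrasts and 1 added after the values were seen. Correlations used 100000 two-sided permutations (numpy 2.4.6). Pairs were adjusted over 45, relations with the lists over 20 and those with the library number over 10. Symbols came from the GENCODE annotation of GRCm38, and coordinates of promoters from RefSeq. Scripts were tested on simulated data.

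The clock genes, the other gene lists and the tests were chosen with earlier results of these data known. All 10 clock genes are named. Of the other clock genes, those with an unadjusted p under 0.05 in a planned contrast are named, and the 8 highest and the 8 lowest correlations with Dbp and Arntl are given. Alternatives were an added constant of 0.1, base 2, a minimum abundance of 5 or none, quantile normalization applied again, array quality weights, a robust variance prior, library or group subsets and the choroid plexus mean as a covariate.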

Additional observations from a re-analysis of the deposited data

How the results depend on the processing

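Each clock gene's value was recomputed under the alternatives in all 7 contrasts. In none of 151 alternatives of the count did a clock gene pass, and the smallest adjusted p of any clock gene was 0.269. Of 1503 recomputed differences, 15 moved by more than the residual SD of their gene (12 without the 4 libraries with high choroid plexus markers and 3 without AS male 2), and 129 changed sign, none of which had passed. For Per2 as the mean of both sexes, AS minus WT ran from -0.28 to -0.15, with unadjusted p between 0.0227 and 0.252. The median difference of all genes was at most 0.02 in size in any contrast, in the main fit and under every alternative. Cry1 is not tested at a minimum mean abundance of 5.

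The count of correlated pairs, 1, became 0 with Spearman's rho and 0 without the 4 libraries with high choroid plexus markers. Leaving out each library in turn gave 0 to 1, with 0 without WT female 2 and without AS male 2. The count of relations with the responsive lists, 1, became 0 with Spearman's rho, where Per1 had rho 0.78, and 7 as deviations from the group means. Leaving out each library gave 1 to 3, with 2 without WT female 1 (Per1 with the glucocorticoid-responsive mean joined) and 3 without WT male 2 (Cry1 and Nr1d1 with the activity-regulated mean joined). The cause of these moves was not tested.

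No paired analysis was possible because the labels give no replicate numbers that groups share. Fits to only the groups compared do not apply to means over both sexes or the interaction. The depth behind each value is unknown and the hour of dissection is not given.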

Other observations

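The range of Arntl over libraries was unequal between the genotypes, a pattern noticed after the values had been seen and not tested. The 6 AS libraries ran from 3.71 to 3.74, a range of 0.03, and the 6 WT libraries from 3.58 to 3.82, a range of 0.24. The AS range was 0.125 of the WT range, a ratio reached or undercut by 10 of the 13858 genes tested, or 0.0722%. Its partner Clock ran from 3.79 to 4.21 in AS and from 4.01 to 4.13 in WT libraries, a ratio of 3.56, and 98.8% of genes had that ratio or a lower one. AS male 2, one of the 4 libraries with high choroid plexus markers, gave the highest Clock value.

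As deviations from the group means, 7 of the 20 relations with the responsive lists passed, and their permutation p does not allow for the 4 means removed. Besides Per1 with both lists (r 0.90 and 0.89), they were Clock (-0.69), Cry1 (-0.68), Nr1d1 (0.70) and Ciart (0.67) with the activity-regulated mean and Ciart (0.68) with the glucocorticoid-responsive mean.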
